A study of Rattus norvegicus with 12 samples.

Results

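The comparison set the 3 arrays of vein grafts taken 28 days after surgery against the 3 arrays of unoperated vein (day 0). These are 6 of the 12 arrays of a rat series that also holds 3 arrays each of grafts at days 7 and 14, and members were chosen by the labelled day after surgery. All samples were labelled as vein blood vessel of male rats. The day 28 grafts were external jugular veins set into the carotid artery as bypass grafts, while the day 0 veins came from rats that had no bypass operation. The labels name no strain, age, genotype or sham operation, so day 0 differs from day 28 by surgery and time together. All 24684 gene probes of the array were fitted, and 14294 of them carried 1 gene symbol, for 13903 genes.

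A vein placed in an artery meets arterial pressure and pulsatile flow, and its wall thickens and takes on features of an artery, a course called arterialization. Medial smooth muscle cells of a resting vessel carry a contractile apparatus of actin, myosin and calponin, and in an injured wall they can lose it while they divide and make matrix. Macrophages enter the graft, endothelium is lost and regrows, and collagen, elastin and proteoglycans are laid down in the new intima and adventitia. The question was how far the late graft stood from the vein it was made from, and which genes lay at the vein level.

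Values are log2 signal minus the 75th percentile of log2 signal on the same array, so 0 is the level of a bright probe, and values of different genes are not compared as amounts. Values by array are given in the order of replicates 1, 2 and 3, a numbering that only names the arrays. In the vein, Aurka, Cd79b, Gzmb and Nefm were well above background on 1 array and Ccl3, Ccna2, Cd22, Cx3cr1, Dio3, Epb42, Itgam, Lrrc15, Mcpt10, Msln, Myh4, Ms4a2 and RT1-DOa on 2. In the graft Mup4l3 was on 1 array and Hpd, Pou3f3 and RT1-Bb on 2. Differences are day 28 minus day 0 on the log2 scale, ± SE from limma, and a gene was called when its adjusted p was under 0.05. The labels do not state that arrays came from separate animals, so these p-values measure the spread between samples of the same day. In the fit to all arrays that spread was pooled over every day of the series, not taken from day 0 and day 28 alone. Uneven arrays of the other days therefore also enter the SE.

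The day 28 arrays were closer to one another (Pearson r of 0.981 to 0.991 over all probes) than the day 0 arrays were (0.932 to 0.971), and the median SD of a probe was 0.196 at day 28 and 0.479 at day 0. On the first principal component of the 6 arrays, which held 66.2% of the variance, day 28 lay at 106, 98.4 and 100.2, and day 0 at -34.8, -91.3 and -179. Between 71.9% and 81.2% of the 42136 gene spots of an array were well above background, and 0 were saturated. Day 0 replicate 3 held 460 non-uniform spots against 3 to 11 on the other 5 arrays. The file headers give 4 scan times. Day 28 replicate 3 shared a scan with day 0 replicates 1 and 2, whereas day 28 replicates 1 and 2 were scanned with day 14 arrays and day 0 replicate 3 by itself.

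Replicate 1 of day 28 lay almost at the linear mean of the other two day 28 arrays. Over 19345 probes its distance from that mean had a robust SD of 0.080, although replicates 2 and 3 differed from each other by a robust SD of 0.442. Among 5568 probes on which replicates 2 and 3 differed by more than 0.5, replicate 1 lay between them on 90.9%. Replicate 1 of day 14 (0.138) and, less closely, replicate 1 of day 7 (0.268) showed the same pattern, and the day 0 arrays did not (0.544 to 0.770). The labels do not say that any sample was pooled, and why these arrays lie there was not tested. Whether day 28 holds 3 independent samples was not tested. Counts for the gene lists are given with all 12 arrays in the fit and again from a 9-array fit that leaves out replicate 1 of days 7, 14 and 28, an alternative added after the data were seen.

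**Figure D1:**
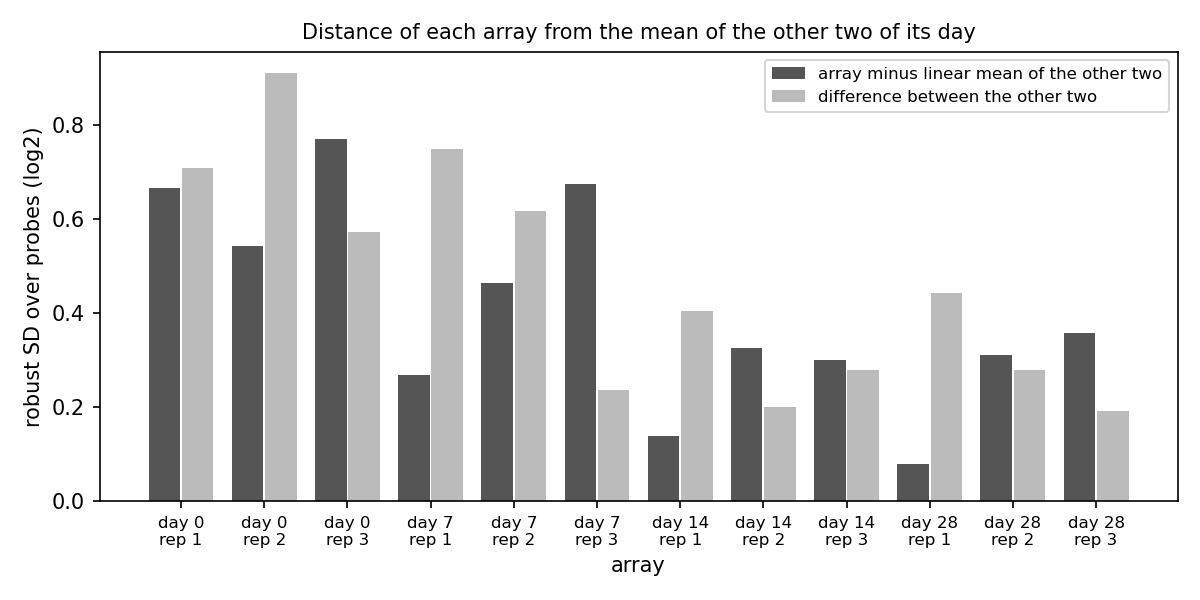
Bars give, for each of the 12 arrays, the robust SD over probes (log2) of the array minus the linear mean of the other two arrays of its day (dark) and of the difference between those others (light). The dark bar of day 28 replicate 1 is 0.080 beside a light bar of 0.442, and no day 0 array has a dark bar under 0.544.

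At day 28, 7292 of 24684 probes (29.5%) were called, 3515 higher (14.2%) and 3777 lower (15.3%) than in unoperated vein. Of genes with a symbol, 31.3% were called, 17.0% higher and 14.3% lower. The counts of the gene lists below are to be read beside these shares, and their 9-array counts beside those that follow. The 9-array fit called 1622 probes (6.57%) and 7.58% of genes with a symbol, 4.41% higher and 3.17% lower, and 1621 of its calls were also calls of the 12-array fit. Leaving out day 28 replicate 1 alone gave 4364 calls (17.7% of probes, 9.09% higher and 8.59% lower, and 19.4% of genes with a symbol, 11.1% higher and 8.34% lower), and 48.4% of all probes had every day 28 array on 1 side of every day 0 array. With the scan as a fixed block, which rests the estimate on the scan that held both days, 1128 probes (4.57%) were called. Values within the shared scan, given as a description, set day 28 replicate 3 against the mean of day 0 replicates 1 and 2 and so rest on 3 of the same 6 arrays. Counts with the scan block follow the 9-array counts, and a called gene that the text describes from a list but does not name after that count lost its call in that fit. Calls lost with normexp background correction are stated for some genes in place and are listed in the closing section. The median difference of all probes was -0.11, and scaling by the median instead of the 75th percentile moved all differences by 0.10. Which direction had more calls depended on the processing: 4035 higher and 3139 lower with median scaling, 3868 and 3421 with quantile scaling, and 3914 and 3356 in a fit of the authors' deposited table.

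A probe was taken to lie within 2-fold of the vein when the 95% interval of its difference was inside -1 to 1. Of 19589 probes well above background on all arrays of either day, 6157 (31.4%) met this, and so did 3859 of 11694 genes (33.0%). In 7022 of these probes neither a call nor the 2-fold bound was reached, so these data place them neither at nor away from the vein level. Fewer probes met the 2-fold bound without replicate 1 of days 7, 14 and 28 (3035) and with the scan as a fixed block (3798). Leaving out 1 array of day 0 or day 28 gave 4750 to 6979. For single genes below, the 2-fold bound is that of the fit to all arrays, and their bounds in the other fits are not given. In bulk tissue, fewer cells of a type and less RNA per cell cannot be told apart, which holds for every gene below. The plot of list medians places 37 gene lists by their difference from day 0 at each graft day.

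**Figure D2:**
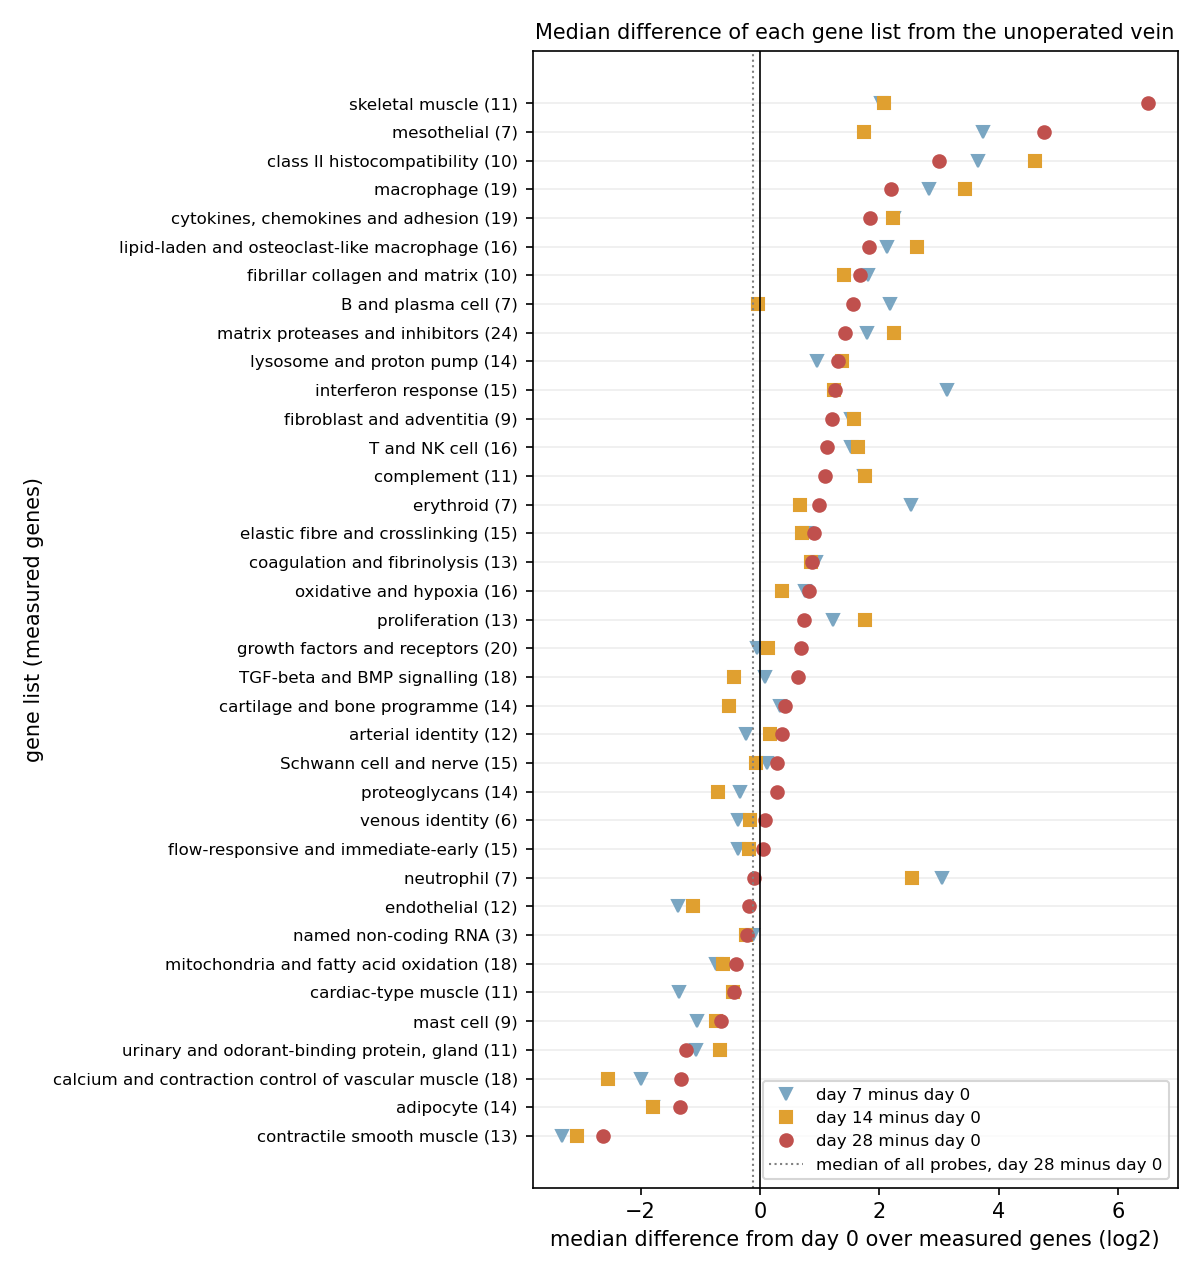
Each point is the median over a list's measured genes of the log2 difference from day 0, at day 7 (triangles), day 14 (squares) and day 28 (circles), with the number of measured genes after the list's name. The 3 days share the day 0 arrays. At day 28 the medians run from -2.62 for contractile smooth muscle to 6.50 for skeletal muscle, and the dotted line at -0.11 is the median of all probes.

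The contractile genes of smooth muscle were low in the day 28 graft. Of 13 measured genes 10 fell, 0 rose and 3 were not called, with a median difference of -2.62 (-2.31 within the shared scan). The 9-array fit called 4 of them lower: Mylk, Lmod1, Des and Myl9 (4 with the scan block: Des, Mylk, Lmod1 and Myl9). Acta2, Myh11 and Synpo2 were on the list but not measured here.

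Mylk, the kinase that phosphorylates myosin light chain to start contraction, was 5.58, 6.77 and 7.01 on the day 0 arrays and 2.27, 2.74 and 1.38 on the day 28 arrays. It fell by the largest amount of the list (-4.32 ± 0.52, adjusted p = 0.00033), and the highest day 28 array lay far under the lowest day 0 array. Lmod1, which nucleates actin filaments in smooth muscle, went from 2.07, 3.20 and 2.64 to -0.49, -0.38 and -0.48 (-3.09 ± 0.35, adjusted p = 0.00024). The regulatory light chain gene Myl9 was 5.44, 6.74 and 6.20 in vein and 3.63, 3.80 and 3.29 in the graft (-2.55 ± 0.32). Des, the intermediate filament protein desmin of muscle cells, was 7.63, 8.15 and 7.96 and then 5.42, 4.63 and 5.83 (-2.62 ± 0.28). In these 4 genes the 2 days did not overlap, and the 3 day 28 arrays spread most in Mylk and Des.

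Cnn1, calponin, was 7.27, 7.92 and 7.83 in vein and 4.46, 4.26 and 4.78 in graft (-3.17 ± 0.61, adjusted p = 0.0038, 0.051 in the 9-array fit). Actg2, enteric smooth muscle actin, gave -3.09 ± 0.73 with day 28 arrays at 5.54, 5.42 and 5.55. Smtn, smoothelin, gave -2.83 ± 0.67, and its day 0 arrays were uneven at 5.60, 5.98 and 7.85. Tagln, the actin-binding protein transgelin, was among the brighter probes and moved less, from 8.04, 8.65 and 8.60 to 7.17, 7.07 and 7.08 (-1.33 ± 0.36), and Tpm2, a tropomyosin, gave -1.58 ± 0.42. None of these 5 was called in the 9-array fit. Calls of Tagln and Tpm2 were also lost without day 0 replicate 2, without day 28 replicate 1 and without day 28 replicate 2, and that of Tagln without day 28 replicate 3 (highest adjusted p of these fits 0.056 and 0.063).

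Cald1, Myocd and Ldb3 were not called. Cald1, caldesmon, was 3.81, 5.12 and 4.53 in vein and 4.59, 4.84 and 4.01 in graft (95% interval -1.03 to 1.02). Myocd, myocardin, the coactivator that drives the contractile programme, gave -2.77 ± 1.0 (adjusted p = 0.059), with even day 0 arrays at 1.26, 1.32 and 1.47 and spread day 28 arrays at -1.18, -0.64 and -2.43. Its SE also takes in uneven day 7 arrays (-1.45, -0.94 and -5.58). Myocd was called lower with the 6 arrays of the comparison alone (adjusted p = 0.014) and with normexp background correction (adjusted p = 0.035). It was not called in the 9-array fit (adjusted p = 0.18) or with the scan block (adjusted p = 0.24). Ldb3, a Z-disc protein that skeletal muscle also makes, was 0.64, -2.30 and 1.66 at day 28, in the same order over the arrays as the skeletal muscle genes below. Tpm1 gave -1.16 ± 0.33 for its brightest probe (with 1 array left out adjusted p up to 0.072 and differences of -1.50 to -0.84), but its 9 called probes disagreed: 5 fell by 1.16 to 1.26 on the log2 scale and 4 rose by 2.35 to 2.81.

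**Figure D3:**
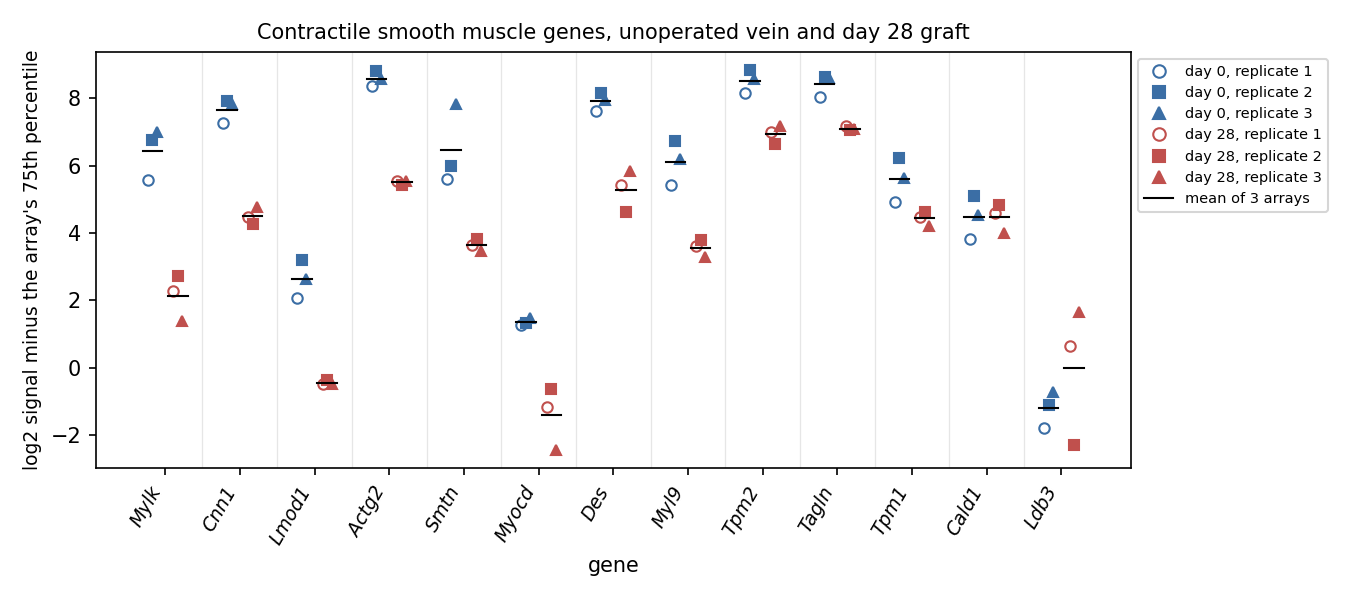
Points are the values of the 13 contractile smooth muscle genes on each day 0 (blue) and day 28 (red) array, as log2 signal minus the array's 75th percentile, with black bars at the means of 3 arrays. Genes run from the largest fall (Mylk, -4.32) to Ldb3 (1.21, not called), and the colours overlap in Cald1 and Ldb3 but not in the other 11 genes.

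Genes that set the contraction of vascular muscle showed falls and rises. Of 18 measured genes 10 fell and 3 rose (median -1.32, -1.58 within the shared scan), and the 9-array fit called 6 lower and 0 higher (5 with the scan block, among them Ppp1r12b). Ppp1r14a, the inhibitor of myosin phosphatase known as CPI-17, was 5.96, 6.90 and 6.83 in vein and 2.60, 2.88 and 2.39 in graft (-3.94 ± 0.60, adjusted p = 0.0012). Ppp1r12b, a targeting subunit of that phosphatase, fell as well (-3.43 ± 0.39). Pln, phospholamban, the inhibitor of the sarcoplasmic calcium pump, was -3.28, -3.49 and -4.29 and then 1.01, 1.67 and -0.66 (4.36 ± 1.45, adjusted p = 0.045). Its call was lost without any 1 of the 6 arrays of the comparison (with 1 array left out adjusted p up to 0.13 and differences of 3.86 to 5.03). Those fits take in uneven day 7 arrays of Pln (-0.64, -0.09 and -6.49). The 6 arrays alone kept the call (adjusted p = 0.0095), but the 9-array fit (adjusted p = 0.18) and the scan block (adjusted p = 0.56) did not. Kcnj8, a subunit of an ATP-sensitive potassium channel, gave 1.36 ± 0.42 (adjusted p = 0.17 in the 9-array fit, with 1 array left out adjusted p up to 0.1 and differences of 0.83 to 1.70). The pump itself, Atp2a2, lay at the vein level, with 2.99, 3.06 and 2.97 in vein, 2.97, 3.10 and 2.91 in graft and a 95% interval of -0.36 to 0.33.

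Of 12 measured endothelial markers 2 fell, 1 rose and 9 were not called, where 31.3% of all genes with a symbol were called. The median was -0.19 (-0.05 within the shared scan), and 3 lay within 2-fold of the vein. Against the same day 0 arrays the median of this list had been -1.37 at day 7 and -1.12 at day 14. Esam, an endothelial junction adhesion molecule, was 4.66, 4.52 and 4.70 in vein and 2.94, 2.45 and 3.42 in graft (-1.69 ± 0.27, adjusted p = 0.0015, 0.043 in the 9-array fit). It was the one member called in the 9-array fit (0 with the scan block). Cdh5, VE-cadherin of the adherens junction, was -2.11, -2.20 and -2.64 and then -1.44, -1.95 and -0.99 (0.86 ± 0.25), a call lost without day 0 replicate 3, day 28 replicate 1 or day 28 replicate 3 (adjusted p up to 0.089 and a difference of 0.62 at the lowest). Nos3, the endothelial nitric oxide synthase, was within 2-fold of the vein (2.27, 1.77 and 1.60 and 1.60, 1.23 and 1.96, 95% interval -0.79 to 0.22), as was Sox17, a transcription factor of arterial endothelium (-0.56 to 0.88).

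The genes that mark venous or arterial identity did not exchange as 2 groups. Of 6 venous genes 2 fell and 2 rose (0 higher and 1 lower in the 9-array fit, 0 with the scan block), with a median of 0.09. Nr2f2, COUP-TFII, the transcription factor that maintains vein identity, was 1.86, 2.34 and 2.55 in vein and 0.36, 0.40 and 0.33 in graft. It fell by 1.89 (-1.89 ± 0.27, adjusted p = 0.00081, 0.032 in the 9-array fit), and its day 28 arrays were nearly equal. Emcn, endomucin, a sialomucin of venous and capillary endothelium, was 3.08, 2.72 and 3.48 and then 1.45, 0.96 and 1.94 (-1.64 ± 0.29, 0.053 as adjusted p in the 9-array fit). Flt4, the receptor for VEGF-C, rose (1.40 ± 0.32), and Nrp2, its coreceptor, gave 0.84 ± 0.28 with a call lost in 5 of the 6 fits that leave out 1 array (with 1 array left out adjusted p up to 0.12 and differences of 0.53 to 1.05). Aplnr, the apelin receptor, was not called, and day 0 spread from 2.49, 0.08 and -1.51 over the 3 arrays. Without day 0 replicate 1, the highest of them, Aplnr was called higher (2.42, adjusted p = 0.0064). Selp was under background on all 6 arrays.

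Of 12 arterial genes 3 rose, 0 fell and 9 were not called (1 higher and 0 lower in the 9-array fit, 0 with the scan block), with a median of 0.37 (0.47 within the shared scan). The share called over all genes with a symbol was 31.3%. Cxcr4, a chemokine receptor of arterial endothelium that leukocytes carry too, was 0.44, -2.47 and -2.32 in vein and 2.53, 2.14 and 2.99 in graft (4.0 ± 0.66, adjusted p = 0.0018, 0.039 in the 9-array fit). Day 0 replicate 1 stood above the other day 0 arrays by over 2 units and still under every day 28 array. Gja4, the gap junction protein connexin 37, gave 1.58 ± 0.49, with day 0 at 2.58, 1.16 and 0.06 and day 28 at 2.85, 2.60 and 3.09. Leaving out day 0 replicate 2 or 3 or any day 28 array ended it (with 1 array left out adjusted p up to 0.091 and differences of 0.98 to 2.24). Nrp1, a coreceptor for VEGF and semaphorins, was 3.20, 2.19 and 2.27 and then 3.62, 3.63 and 3.60 (1.06 ± 0.26).

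Notch pathway members and the other arterial genes gave no call. Dll4, the Notch ligand of arterial endothelium, was 1.66, -0.85 and -1.16 in vein and 1.51, 0.63 and 2.17 in graft (1.55 ± 0.65, adjusted p = 0.09). Notch1 gave 0.58 ± 0.50 and Notch4 0.74 ± 0.50, each with day 0 replicate 1 above the rest of its day. Without that array Dll4 (2.44, adjusted p = 0.0016) and Notch1 (1.21, adjusted p = 0.026) were called higher, so the vein level of these genes rests on 1 array. Gja5, connexin 40, gave 0.16 ± 0.41, and the ephrin ligand Efnb2 gave -0.09 ± 0.58 with uneven day 0 values of -3.54, -2.64 and -5.58, and it was called lower without day 0 replicate 3 (-0.92, adjusted p = 0.048). Unc5b, a netrin receptor, gave -0.63 ± 0.24. Jag1 (95% interval -0.60 to 0.89), Acvrl1 (-0.60 to 0.78) and Sox17 lay within 2-fold of the vein. Dll4, Notch4, Gja5, Aplnr, Esam, Emcn and Cdh5 shared an order at day 28, highest on replicate 3 and lowest on replicate 2. Replicate 1 lay between replicates 2 and 3 on most probes that differed, so this order mainly says that replicate 3 exceeded replicate 2. The share of all probes with this order was not counted.

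**Figure D4:**
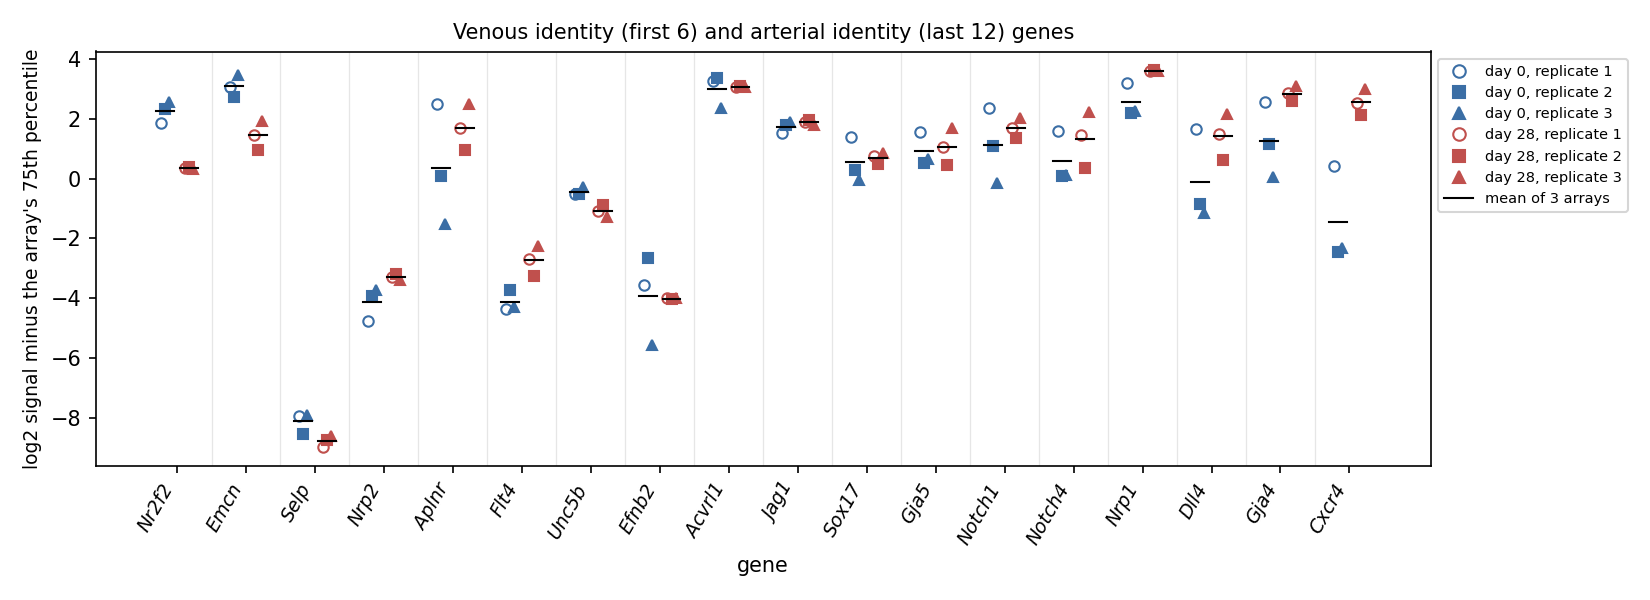
Points are the values on each day 0 (blue) and day 28 (red) array of 6 venous identity genes (first) and 12 arterial identity genes (last), as log2 signal minus the array's 75th percentile, with bars at the means. Nr2f2 and Emcn stand lower at day 28 on all arrays and Cxcr4 stands higher, while day 0 replicate 1 (blue circle) is the highest day 0 array for Dll4, Notch1, Notch4, Gja4, Gja5 and Aplnr.

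Matrix genes were high in the late graft. Of 10 measured genes for fibrillar collagens and their partners 8 rose and 0 fell (median 1.67, 1.54 within the shared scan), and the 9-array fit called 3 (2 with the scan block). Cthrc1, a secreted protein induced in injured arteries, was 1.33, -0.03 and -1.79 in vein and 4.70, 4.95 and 4.04 in graft (4.73 ± 0.74, adjusted p = 0.0014, 0.033 in the 9-array fit). Its lowest day 28 array stood above its highest day 0 array by more than 2 units. Col8a1, a short-chain collagen of remodelling vessels, was 2.93, 2.01 and 1.33 and then 6.35, 6.64 and 5.41 (4.05 ± 0.80, 0.057 in the 9-array fit). Sparc, a collagen-binding glycoprotein, stayed within 2-fold of the vein (-0.08 to 0.82) and was called higher without day 0 replicate 1 (0.55, adjusted p = 0.046).

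In the elastic fibre and crosslinking list 6 of 15 rose, 0 fell and 4 lay within 2-fold of the vein (median 0.90) (2 higher and 0 lower in the 9-array fit, 0 with the scan block). Ltbp2, a microfibril protein that binds fibrillin, was -1.33, -2.17 and -3.49 in vein and 4.12, 4.57 and 3.21 in graft (6.29 ± 0.94, adjusted p = 0.0011). Mfap4, a microfibril-associated protein, was 3.01, 2.23 and 1.17 and then 4.84, 5.09 and 4.40 (2.64 ± 0.44). Ltbp2 and Mfap4 were called in the 9-array fit, and in both day 0 replicate 3 was the lowest and day 28 replicate 2 the highest array. Fbn1, the fibrillin of microfibrils (2.63 ± 0.48), Fbln5, which binds elastin (2.21 ± 0.75), and the crosslinking enzymes Loxl1 (2.38 ± 0.52) and Loxl2 (1.66 ± 0.43) rose in the 12-array fit and were not called in the 9-array fit. Eln, elastin itself, was 5.49, 5.45 and 5.66 in vein and 7.55, 7.55 and 6.76 in graft and was not called (1.75 ± 1.28, adjusted p = 0.31). Every graft array of Eln lay above every vein array, and its SE pools the spread of all days. Ltbp1 (-0.43 to 0.92), Fbln1 (-0.27 to 0.97) and Efemp2 (-0.01 to 0.83), which serve microfibrils and elastin assembly, had 95% intervals inside 2-fold, and without day 0 replicate 1 Fbln1 (0.67, adjusted p = 0.047) and Efemp2 (0.56, adjusted p = 0.037) were called higher.

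Among 14 proteoglycan genes 4 rose and 1 fell (2 higher and 1 lower in the 9-array fit, 2 with the scan block: Acan and Kera), with a median of 0.28. The share called over all genes with a symbol was 31.3%. Acan, aggrecan, the large proteoglycan of cartilage, was not well above background in vein (-7.29, -8.03 and -7.93) and reached 1.72, 2.14 and 0.90 in graft. The bound puts it at least 236-fold higher, which sets the day 28 mean against the lowest signal detected on each vein array (fitted 9.34 ± 0.89, adjusted p = 9.7e-05). Bounds of this kind hold for the processed signal. With normexp correction, which adds an offset of 50 to every signal, the difference of each gene given by a bound was smaller than that bound (for Acan 4.95, adjusted p = 0.0022). Kera, keratocan, a small leucine-rich keratan sulfate proteoglycan, was likewise under background in vein (-7.69, -8.18 and -7.85) and at -0.06, -0.30 and 0.13 in graft, at least 74.6-fold higher (0.0053 as adjusted p in the 9-array fit). Has1, a hyaluronan synthase, fell from 2.78, 1.13 and 2.38 to -0.98, -0.95 and -0.84 (-3.02 ± 0.42). Decorin (Dcn, -0.87 to 0.36) and biglycan (Bgn, -0.28 to 0.82), the small proteoglycans that coat collagen fibrils, were within 2-fold.

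Proteases and their inhibitors gave 15 rises and 0 falls among 24 measured genes (median 1.42, 1.23 within the shared scan), and the 9-array fit called 7 higher (4 with the scan block, among them Mmp12 and Mmp13). Mmp12, macrophage elastase, was -1.40, -2.82 and -4.29 in vein and 4.64, 4.70 and 4.54 in graft (7.46 ± 0.65, adjusted p = 5.4e-05). The 3 graft arrays were nearly equal while the vein arrays spanned almost 3 units. Mmp13, collagenase 3, was under background in vein (-6.62, -7.93 and -7.77) and at -0.21, -0.51 and 0.14 in graft, at least 68.9-fold higher (0.0022 as adjusted p in the 9-array fit). Timp2 (-0.05 to 0.95), an inhibitor of these enzymes, and Adamts9 (-0.21 to 0.68), a proteoglycan-cleaving enzyme, lay within 2-fold of the vein.

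In the bone and cartilage list 3 of 14 genes were called higher and 1 lower, where 31.3% of all genes with a symbol were called (1 higher and 0 lower in the 9-array fit, 1 with the scan block: Spp1). Spp1, osteopontin, a phosphoprotein of bone, macrophages and dividing smooth muscle, was 0.76, -0.23 and 0.04 in vein and 7.25, 7.0 and 7.0 in graft (6.89 ± 0.30, adjusted p = 1.6e-06, 0.0016 in the 9-array fit). Its arrays agreed within about 1 unit on each day. Tnfrsf11b, osteoprotegerin, the decoy receptor that limits osteoclast formation, gave 2.86 ± 0.56 and was not called in the 9-array fit (0.063). Sp7, osterix, the transcription factor of bone-forming cells, fell by 1.26 (-1.92, -1.63 and -0.81 and -2.76, -2.62 and -2.77). This direction was opposite to that of Spp1, but the call of Sp7 was lost in the 9-array fit, with the scan block and with normexp.

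Macrophage genes remained above the vein level. Of 19 measured markers 15 rose and 0 fell, the median was 2.20 (2.07 within the shared scan), and the 9-array fit called 5 (4 with the scan block, among them Itgam, Gpnmb and Cx3cr1). Against the same vein arrays the median had been 2.83 at day 7 and 3.43 at day 14. Cx3cr1, the fractalkine receptor of monocytes, was -3.96, -5.96 and -7.96 in vein and -0.25, -0.20 and -0.45 in graft (5.66 ± 0.74, adjusted p = 0.00054). Itgam, the integrin CD11b, was -3.82, -5.03 and -6.11 and then 0.16, 0.0 and 0.41 (5.17 ± 0.45, 0.0063 as adjusted p in the 9-array fit). Day 0 replicate 1 was the highest vein array in both genes, and over the whole list its median was 1.91 against -0.43 and -0.17 on the other vein arrays. Whether this array held more leukocyte RNA was not tested.

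In the list of lipid-laden and osteoclast-like macrophages 11 of 16 rose, 2 fell, and the 9-array fit called 9 higher and 1 lower (5 with the scan block: Mmp12, Spp1, Gpnmb, Atp6v0d2 and Apoe). This list shares Spp1 and Mmp12 with those above. Atp6v0d2, a proton pump subunit of osteoclasts and macrophages, was -4.58, -3.97 and -3.82 in vein and 1.43, 1.55 and 1.33 in graft (5.56 ± 0.32, adjusted p = 5.8e-06). Gpnmb, a glycoprotein of lipid-loaded macrophages, was 3.35, 1.95 and 4.72 and then 7.27, 6.91 and 7.44 (3.87 ± 0.54). Ctsk, the collagen-cleaving cathepsin K, gave 2.91 ± 0.40 and Apoe, the lipid carrier of macrophage cholesterol efflux, 2.09 ± 0.34. These 4 were called in the 9-array fit. Siglec1, sialoadhesin of resident macrophages, went the other way (-4.36 ± 0.88), with vein arrays at -0.20, 0.82 and 3.97 and graft arrays at -2.96, -3.01 and -2.53. Its day 0 replicate 3 lay far above the rest, and its fit, like that of Nppa below, had no value on day 7 replicate 3. Siglec1 was not called in the 9-array fit, whose 1 lower call in this list was Fabp4 (adjusted p = 0.049). Cd36 (-0.75 to 0.25) and Lpl (-0.53 to 0.57), which take up lipids, lay within 2-fold. Of 14 lysosomal and proton pump genes 9 rose and 0 fell (3 higher and 0 lower in the 9-array fit, 1 with the scan block: Npc2). Among them Npc2, which carries cholesterol out of lysosomes, was 4.30, 3.65 and 4.06 in vein and 5.95, 5.81 and 6.04 in graft (1.93 ± 0.21), and the protease Lgmn gave 2.40 ± 0.45. Atp6v1h, a subunit of the proton pump, rose and yet lay within 2-fold (0.19 to 0.96, with 1 array left out adjusted p up to 0.11 and differences of 0.48 to 0.69), while the lysosomal channel Mcoln1 (-0.09 to 0.75) was within 2-fold and not called.

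Class II histocompatibility genes, which present antigen to CD4 T cells, rose in 7 of 10 cases with a median of 3.0 (2.77 within the shared scan). Ciita, their master regulator, was -3.43, -4.76 and -4.12 in vein and -1.16, -1.43 and -1.0 in graft (2.91 ± 0.32, adjusted p = 0.00021, 0.015 in the 9-array fit). Cd74, the invariant chain, was 1.55, -0.40 and -1.09 and then 4.30, 4.37 and 4.29 (4.30 ± 0.61, adjusted p = 0.00083). These 2 were the members that the 9-array fit called (1 with the scan block: Ciita).

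The chains RT1-Ba (3.58 ± 0.75), RT1-Da (3.23 ± 0.61) and RT1-Db1 (2.32 ± 0.58, with 1 array left out adjusted p up to 0.051 and differences of 1.92 to 3.09) and the loading proteins RT1-DMa (3.08 ± 0.57) and RT1-DMb (3.91 ± 0.78) rose in the 12-array fit, with adjusted p between 0.053 and 0.11 in the 9-array fit. RT1-DOa (0.57 ± 0.66) and RT1-DOb (0.70 ± 0.36), which modulate loading, were not called. The RT1-Bb probe gave 2.62, -8.72 and 3.94 at day 28, with replicate 2 under background, so no direction is given. Closely related chains of this locus differ between rat strains, and cross-hybridisation of the probes was not tested. Day 0 replicate 1 had a list median of 1.93, against -0.35 and -0.74 on the other vein arrays.

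Lymphocyte and other leukocyte lists were mixed. Of 16 T and NK cell genes 6 rose and 0 fell (1 higher and 0 lower in the 9-array fit, 1 with the scan block: Gzmb). The share called over all genes with a symbol was 31.3%. Cd4, a coreceptor that rat macrophages also carry, was -2.65, -4.04 and -4.78 in vein and -0.84, -0.89 and -0.75 in graft (3.0 ± 0.46), and Gzmb, a granule protease of cytotoxic cells, was -2.89, -4.85 and -1.96 at day 28 (3.25 ± 0.70). Cd3d (-0.38 to 0.46), a defining T cell receptor chain, and Cd8b (-0.61 to 0.76) lay within 2-fold of the vein. Of 7 B and plasma cell genes 3 rose (1 higher and 0 lower in the 9-array fit, 0 with the scan block), with Cd79b, a B cell receptor chain, at -5.85, -5.94 and -6.92 and then -2.75, -2.25 and -3.81 (3.30 ± 0.52) and Cd22 at 2.29 ± 0.76 (with 1 array left out adjusted p up to 0.12 and differences of 1.46 to 3.42). Of 7 neutrophil genes 0 rose and 0 fell (median -0.09), against medians of 3.05 at day 7 and 2.55 at day 14. Of these 7 genes 0 met the 2-fold bound, and 2 were well above background on no vein or day 28 array. These data place them neither at nor away from the vein level. Mast cell genes split, with 2 of 9 higher and 2 lower (1 higher and 0 lower in the 9-array fit, 1 with the scan block: Kit). Kit, the stem cell factor receptor, rose (1.72 ± 0.24) and so did Mcpt10 (1.56 ± 0.47, with 1 array left out adjusted p up to 0.1 and differences of 1.11 to 1.88), while Mcpt1 (-2.94 ± 0.78, with 1 array left out adjusted p up to 0.059 and differences of -3.53 to -1.97), with vein arrays at -1.01, -0.60 and 2.10, and Ms4a2 (-1.12 ± 0.28, with 1 array left out adjusted p up to 0.09 and differences of -1.51 to -0.73) fell. For Ms4a2 the fit had no value on replicate 3 of days 0 and 7.

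Cytokine, chemokine and adhesion genes rose in 9 of 19 cases and fell in 1 (3 higher and 0 lower in the 9-array fit, 0 with the scan block), with a median of 1.84 (1.02 within the shared scan). Ccl3, a chemokine that draws monocytes, was -1.49, -4.98 and -5.89 in vein and 0.59, 0.84 and 0.32 in graft (4.70 ± 0.85, adjusted p = 0.0029, 0.049 in the 9-array fit). Il18, a cytokine of the interleukin-1 family, was -0.14, -2.92 and -3.44 and then 1.61, 1.35 and 1.84 (3.77 ± 0.68). In both, day 0 replicate 1 lay above the other vein arrays by more than 2 units. Il10, an anti-inflammatory cytokine, was the one that fell (-1.76, -1.78 and -1.40 and -3.47, -3.13 and -3.70, -1.79 ± 0.35).

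Complement genes rose in 4 of 11 cases (1 higher and 0 lower in the 9-array fit, 0 with the scan block). Of all genes with a symbol 31.3% were called. C2, a protease precursor of the classical pathway, was 3.96, 1.07 and 1.34 in vein and 4.46, 4.32 and 4.52 in graft (2.31 ± 0.61), a call that ended without day 0 replicate 2, day 0 replicate 3 or day 28 replicate 1 (with 1 array left out adjusted p up to 0.054 and differences of 1.78 to 3.23). The complement median of day 0 replicate 1 (4.96) lay above every day 28 array (4.21 to 4.36), whereas the other vein arrays had 1.94 and 1.39. Of 15 interferon response genes 8 rose and 0 fell (3 higher and 0 lower in the 9-array fit, 0 with the scan block). Mx1, an antiviral GTPase, was -3.53, -2.96 and -4.75 and then -0.76, -0.59 and -1.03 (2.95 ± 0.51), and Usp18, which damps interferon signalling, gave 2.04 ± 0.29. Irf1, a transcription factor of the response, lay within 2-fold (-0.34 to 0.72).

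Growth factor and signalling genes moved both ways. Of 18 TGF-beta and BMP genes 7 rose and 1 fell (2 higher and 0 lower in the 9-array fit, 2 with the scan block, among them Tgfb1). Tgfb1, the ligand that drives matrix synthesis, was -1.79, -2.57 and -3.53 in vein and 0.60, 0.80 and 0.29 in graft (3.19 ± 0.36, adjusted p = 0.00023, 0.015 in the 9-array fit). Ccn2, connective tissue growth factor, a gene that TGF-beta induces, gave 2.59 ± 0.69 (0.11 in the 9-array fit, with 1 array left out adjusted p up to 0.058 and differences of 2.41 to 2.88), and the coreceptor Tgfbr3 fell (-1.05 ± 0.20).

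Of 20 other growth factors and receptors 4 rose and 4 fell (1 higher and 1 lower in the 9-array fit, 2 with the scan block, among them Fgf2). The share called over all genes with a symbol was 31.3%. The ligand Fgf2, a smooth muscle mitogen, was -0.95, -0.58 and -1.27 in vein and -3.18, -3.19 and -2.91 in graft (-2.16 ± 0.28), while the receptor Fgfr1 was -0.92, -0.18 and -1.55 and then 1.96, 2.04 and 1.80 (2.82 ± 0.39). Both passed the 9-array fit, in opposite directions. Fgf2 was not called with normexp (-1.60, adjusted p = 0.085), and Fgfr1 was not called with the scan block (adjusted p = 0.062). Pdgfrb, the PDGF receptor of mural cells, rose (1.73 ± 0.34, 0.069 in the 9-array fit). Of 13 proliferation genes 6 rose (2 higher and 0 lower in the 9-array fit, 0 with the scan block), among them Kif20a, a kinesin of cell division (-1.76, -3.94 and -3.78 in vein, -0.24, -0.08 and -0.41 in graft, 2.92 ± 0.47), and the cyclin Ccna2 (3.32 ± 0.60). Pcna, the replication clamp (-0.84 to 0.19), and the mitotic kinase Aurka (-0.67 to 0.74) were within 2-fold. Aurka was well above background on only 1 vein array (-5.79, -5.53 and -5.85 in vein), so its bound describes signal near background.

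Immediate-early and flow-responsive genes gave 0 rises and 1 fall among 15 (median 0.05), and only Klf6 (-0.60 to 0.29) met the 2-fold bound. Klf15, a Krüppel-like factor of quiescent muscle, was 0.90, 1.39 and 1.14 in vein and -1.05, -1.06 and -1.01 in graft (-2.19 ± 0.41, 0.054 in the 9-array fit). The list held 0 with the scan block. Fos (0.70 ± 0.46), Egr1 (-0.74 ± 0.62) and Klf2 (0.56 ± 0.42), an endothelial factor that flow induces, were not called. The list median was 3.84 on day 0 replicate 1 and 1.44 and 1.14 on the other vein arrays, so the vein level itself was uneven for these genes.

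Of 13 coagulation and fibrinolysis genes 9 rose and 1 fell (2 higher and 0 lower in the 9-array fit, 1 with the scan block: Serpinb2). Serpinb2, an inhibitor of urokinase, was under background in vein (-7.99, -6.57 and -7.94) and at -2.87, -2.69 and -3.10 in graft, at least 10.3-fold higher, but its call ended with normexp (1.14, adjusted p = 0.3). Procr, the endothelial protein C receptor, fell (4.19, 4.32 and 4.12 and 2.89, 2.28 and 3.49, -1.33 ± 0.28), and tissue factor (F3, -0.38 to 0.92) and its inhibitor (Tfpi, -0.29 to 0.89) lay within 2-fold. Of 16 oxidative and hypoxia genes 8 rose, 1 fell and 5 lay within 2-fold (3 higher and 0 lower in the 9-array fit, 3 with the scan block, among them Cybb and Ncf1). Cybb, the catalytic subunit of the phagocyte NADPH oxidase, was -1.40, -1.67 and -3.78 and then 1.80, 1.87 and 1.91 (4.14 ± 0.50), and its cytosolic subunit Ncf1 gave 4.47 ± 0.67. Sod1, cytosolic superoxide dismutase, gave -0.72 ± 0.22 (with 1 array left out adjusted p up to 0.099 and differences of -0.82 to -0.57). Ldha (-0.53 to 0.42) and Pdk1 (-0.69 to -0.01), glycolytic genes that hypoxia induces, were within 2-fold.

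Fat cell genes were low in the late graft. Of 14 measured genes 8 fell and 0 rose (median -1.34, -1.14 within the shared scan), and the 9-array fit called 6 lower (5 with the scan block, among them Retn and Thrsp). Retn, the adipokine resistin, was 3.49, 2.84 and 2.72 in vein and -3.19, -3.52 and -2.97 in graft (-6.24 ± 0.48, adjusted p = 2.7e-05). Thrsp, a regulator of lipid synthesis, was 1.79, 0.27 and 0.58 and then -4.66, -4.98 and -4.51 (-5.60 ± 0.44). Neither gene overlapped between the days. Fabp4, which macrophages also make, fell by a smaller amount (-1.52 ± 0.25). How much perivascular fat each sample carried was not tested.

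Of 18 mitochondrial and fatty acid oxidation genes 6 fell, 1 rose and 7 lay within 2-fold, and the 9-array fit called 0 (0 with the scan block). The share called over all genes with a symbol was 31.3%. Acadm, medium-chain acyl-CoA dehydrogenase, was 2.14, 2.70 and 3.0 in vein and 1.38, 1.51 and 1.33 in graft (-1.20 ± 0.22, 0.072 in the 9-array fit). Ppara, the receptor that drives this pathway, gave -1.82 ± 0.31. Etfdh (-0.29 to 0.42) and Cpt2 (-0.25 to 0.60) were within 2-fold of the vein.

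Of the 15 genes named for the largest falls, 4 encode major urinary or odorant-binding proteins. Major urinary and odorant-binding proteins bind small hydrophobic molecules and are made in liver and glands. Mup4l4 was 3.63, 4.98 and 4.06 in vein and -5.06, -5.08 and -5.36 in graft (-9.39 ± 0.88, adjusted p = 8.4e-05). Mup4l3 (-9.20 ± 0.62), Mup4l1 (-8.74 ± 0.46), Mup4 (-5.73 ± 0.42) and Obp3 (-9.19 ± 0.68) fell alike on all 3 graft arrays. These genes belong to 1 lipocalin family with closely related copies, so the values of single copies are uncertain. In the wider list of such proteins and gland genes 5 of 11 fell and 0 rose (0 higher and 3 lower in the 9-array fit, 4 with the scan block, among them Mup4 and Obp3).

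Igfals, which stabilises circulating IGF complexes, was 5.88, 9.11 and 8.78 in vein and -1.32, -1.19 and -1.85 in graft (-9.38 ± 1.84, 0.056 in the 9-array fit). Psd, an exchange factor for the small GTPase ARF6, was 6.60, 7.31 and 7.23 and then -0.62, -0.49 and -0.59 (-7.62 ± 1.01, adjusted p = 0.00059). Foxe1, a forkhead factor, gave -7.56 ± 1.18 and Hpn, the membrane protease hepsin, -7.17 ± 1.57, both with day 0 replicate 1 the lowest vein array. Pou3f3, a POU-domain factor, gave -7.03 ± 0.61 and the myosin motor Myo5b -6.54 ± 0.50. Cyp4a3, a fatty acid hydroxylase, was under background at day 28 and at least 92.2-fold lower. So were the metalloproteinase Mmp27, at least 40.5-fold lower, and the kallikrein protease Klk6, at least 48.7-fold lower, a call that ended with normexp (-2.74, adjusted p = 0.091). Of the 30 genes named for the largest rises and falls 27 were called in the 9-array fit, and Igfals, Hpn and Klk6 were not. These genes were chosen for large, called differences on arrays that the 9-array fit mostly shares, so that count is no separate test of them. With the scan block the calls of Igfals, Psd, Foxe1, Hpn, Klk6, Myh4 and Tceal7 were lost.

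Genes of fast skeletal muscle had the highest median of the 37 lists. Of 11 measured genes 10 rose and 0 fell, with a median of 6.50 (8.66 within the shared scan), and the 9-array fit called 6 (6 with the scan block, among them Tnnc2, Tnni2, Myl1 and Pvalb). The graft arrays were uneven, with list medians of 5.04, 2.47 and 6.02, whereas the vein arrays lay between -2.51 and -1.79. Myh4, the fast myosin heavy chain IIb, was -5.50, -4.70 and -6.40 in vein and 5.04, -0.23 and 5.96 in graft (9.13 ± 1.62, adjusted p = 0.0026, 0.047 in the 9-array fit). Tnnc2, fast troponin C, was -2.87, -2.51 and -3.40 and then 6.04, 2.61 and 6.97 (8.14 ± 1.22). In both genes replicate 2 stood more than 3 units under the other graft arrays. It still lay above every vein array, which was a condition of choosing these genes.

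Myh2, a myosin of other fast fibres, was the member not called, at 0.71, 2.22 and 2.33 in vein and 2.52, 2.47 and 2.57 in graft. Tnni2 (7.98 ± 1.22) and Myl1 (7.78 ± 1.27), also of the fast fibre filaments, and Pvalb, the calcium buffer parvalbumin (7.14 ± 1.15), followed the same order over the graft arrays. So did 2 further genes of the largest rises, the Z-disc genes Myoz1 (4.52, 0.70 and 5.57) and Myot, which was under background in vein and at least 98.5-fold higher (0.88, -1.74 and 1.83). A graft that carries adjoining muscle and a graft whose cells make these transcripts cannot be told apart here. The part of this RNA in other results was not tested, and Des, Tpm1, Tpm2, Ldb3, Tnnt2 and Myl3 are genes that striated muscle makes too.

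**Figure D5:**
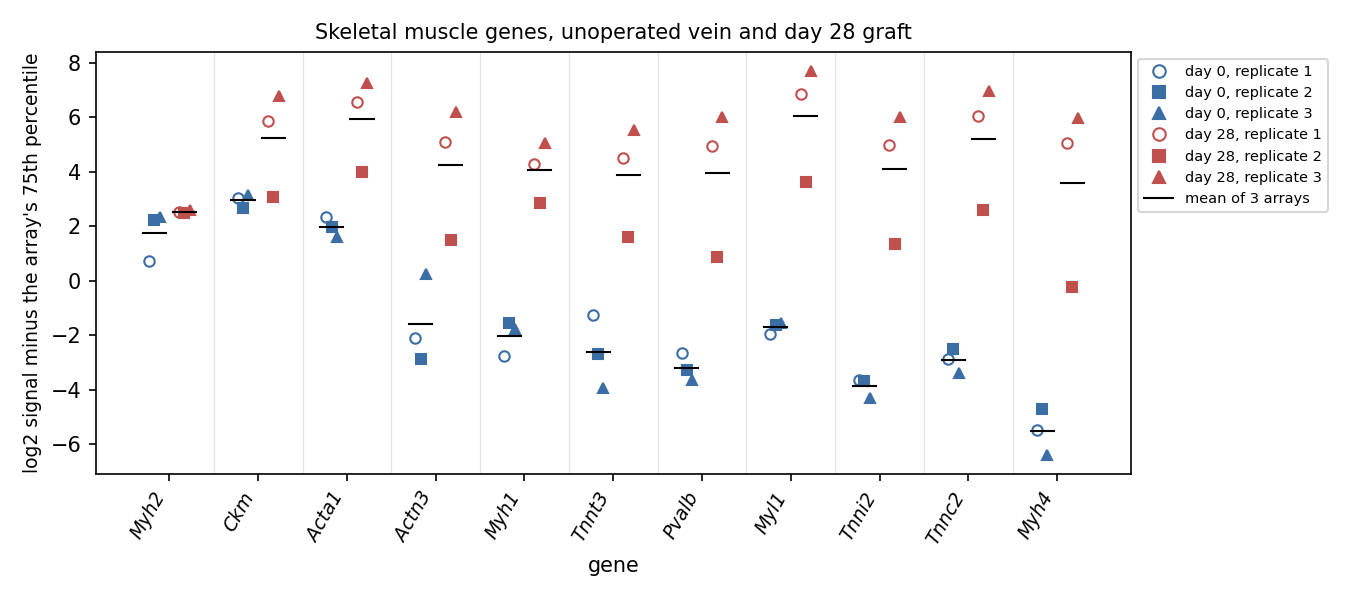
Points are the values of the 11 skeletal muscle genes on each day 0 (blue) and day 28 (red) array, as log2 signal minus the array's 75th percentile, with bars at the means. Day 28 replicate 2 (red square) is the lowest graft array for Myh4, Tnnc2, Tnni2, Myl1 and Pvalb, and the list medians of the graft arrays are 5.04, 2.47 and 6.02.

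The promoters of the contractile smooth muscle, skeletal muscle and cardiac-type lists were searched for the CArG box, the site that serum response factor binds in smooth and striated muscle genes. The pattern equals its own reverse complement, so 1 pass covers both strands. It was present in the 250 bases before the start site in 412 of 27457 rat promoters (1.5%), taken from RefSeq on build GRCr8. Of 10 skeletal muscle genes with a promoter entry 2 held it, Myh4 and Acta1. Of 9 contractile smooth muscle genes 1 held it, Ldb3, and of 8 cardiac-type genes 1 held it, Myl3. All 4 genes had positive differences at day 28 (Ldb3 without a call). In the skeletal muscle list 10 of 11 measured genes rose, with or without a box. Whether direction goes with the box was not tested. The 90-base stretches of every such gene follow, 5′ to 3′ on the strand of the gene, with the box in capitals.
Myh4, chr10:52421990-52422079, plus strand: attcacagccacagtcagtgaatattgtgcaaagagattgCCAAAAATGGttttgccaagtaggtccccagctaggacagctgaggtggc
Acta1, chr19:68784239-68784328, minus strand: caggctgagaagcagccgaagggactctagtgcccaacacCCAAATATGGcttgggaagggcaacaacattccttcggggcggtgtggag
Ldb3, chr16:9924682-9924771, minus strand: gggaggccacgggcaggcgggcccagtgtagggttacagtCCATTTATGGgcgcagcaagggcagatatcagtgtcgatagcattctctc
Myl3, chr8:119616957-119617046, plus strand: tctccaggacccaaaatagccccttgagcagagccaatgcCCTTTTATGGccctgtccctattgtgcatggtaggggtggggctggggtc
A match is a description of these letters, and boxes farther from the start site were not searched. Skeletal alpha-actin (Acta1) gave 3.97 ± 1.18 and Ldb3 1.21 ± 1.02.

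Cardiac-type muscle genes, which the wall of large veins can carry, split. Of 11 measured genes 4 fell and 2 rose (1 higher and 2 lower in the 9-array fit, 4 with the scan block: Myh6, Nppa, Tnnt2 and Myl3). Myh6, alpha myosin heavy chain, was -2.31, -0.71 and -1.38 in vein and -5.04, -4.85 and -4.98 in graft (-3.49 ± 0.37, adjusted p = 0.00017). Nppa, atrial natriuretic peptide, gave -4.86 ± 1.14, with vein arrays at 1.21, 1.51 and 6.40 and replicate 3 far above the rest. The call of Nppa was lost in the 9-array fit (adjusted p = 0.105) and with the 6 arrays alone (adjusted p = 0.054). Tnnt2, cardiac troponin T, rose (-0.95, -0.71 and -1.52 and 2.21, 1.52 and 2.71, 3.21 ± 0.30), and Myl3, a light chain shared with slow skeletal fibres, gave 4.82 ± 1.04 (0.081 in the 9-array fit).

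Markers of the tissue around a vessel also moved. Of 7 mesothelial genes 4 rose and 1 fell (2 higher and 1 lower in the 9-array fit, 2 with the scan block: Wt1 and Krt19). Wt1, a transcription factor of mesothelium, was under background in vein (-7.89, -8.27 and -7.96) and at -1.83, -2.20 and -1.37 in graft, at least 22.6-fold higher. Msln, mesothelin, was 2.47, -3.25 and -6.63 in vein and 3.97, 3.43 and 4.42 in graft (6.41 ± 1.72, 0.12 in the 9-array fit, with 1 array left out adjusted p up to 0.055 and differences of 4.33 to 8.88), and the keratin Krt19 fell (-2.10 ± 0.26). Of 9 fibroblast genes 3 rose and 1 fell (2 higher and 0 lower in the 9-array fit, 3 with the scan block, among them Fap and Lrrc15). Lrrc15, a membrane protein of myofibroblasts, was -5.31, -6.01 and -6.38 and then -0.94, -0.88 and -0.83 (5.02 ± 0.26, adjusted p = 2.8e-06, 0.0022 in the 9-array fit), and Fap, fibroblast activation protein, gave 2.85 ± 0.46. Gsn, gelsolin, fell (-1.21 ± 0.23).

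Of 15 Schwann cell and nerve genes 4 rose and 1 fell (1 higher and 1 lower in the 9-array fit, 1 with the scan block: Prph). The share called over all genes with a symbol was 31.3%. The light neurofilament Nefl was under background in vein and at -3.08, -2.85 and -3.23 in graft, at least 9.47-fold higher, but its call ended with normexp (0.90, adjusted p = 0.34). The medium neurofilament Nefm gave 2.81 ± 0.60. Prph, peripherin, another neuronal filament, fell (-1.88 ± 0.20), and the myelin gene Pmp22 lay within 2-fold (-0.57 to 0.75). Of 7 erythroid genes 3 rose (1 higher and 0 lower in the 9-array fit, 0 with the scan block), among them Epb42 (2.42 ± 0.40) and the anion exchanger Slc4a1 (2.12 ± 0.59, with 1 array left out adjusted p up to 0.08 and differences of 1.67 to 2.48), and the part of blood cell RNA in other results was not tested.

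Among the other large rises, C1qtnf3, a secreted member of the C1q and TNF-related proteins, was -2.30, -5.38 and -4.74 in vein and 4.71, 5.06 and 3.93 in graft (8.71 ± 0.90, adjusted p = 0.00015). Dio3, the deiodinase that inactivates thyroid hormone, was -4.59, -6.81 and -5.30 and then 1.91, 1.88 and 1.98 (7.49 ± 0.52, 0.0031 in the 9-array fit), with graft arrays almost equal. Tnn, tenascin N, a matrix glycoprotein, was -1.57, -3.20 and -3.18 and then 4.34, 3.83 and 4.91 (7.01 ± 0.47). Tceal7 was under background in vein and at -0.92, -1.82 and -0.34 in graft, at least 38.7-fold higher, a call that ended with normexp (2.62, adjusted p = 0.084). That no graft array overlapped a vein array was a condition of choosing these genes and is no result about them.

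Of 3 named non-coding RNAs 1 rose and 1 fell (2 with the scan block: H19 and Rpph1). H19, an imprinted RNA that is abundant in fetal tissue and returns in injured vessels, was 0.65, -1.77 and -2.77 in vein and 4.51, 3.12 and 5.38 in graft (5.64 ± 0.82, adjusted p = 0.00098, 0.03 in the 9-array fit). Replicate 2 was the lowest graft array, as it was for the skeletal muscle genes. Rpph1, the RNA component of RNase P, fell from 4.32, 5.25 and 4.19 to 2.02, 1.96 and 2.18 (-2.53 ± 0.29). Gas5, a host of small nucleolar RNAs, lay within 2-fold (-0.89 to 0.46) in the 12-array fit, with vein arrays at 2.59, 2.12 and 1.13. It was called lower without day 0 replicate 3 (-0.62, adjusted p = 0.031).

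Of 4407 probes named for a mouse ortholog transcript 7.81% rose and 20.7% fell, and of 962 probes for ultraconserved regions 4.68% rose and 15.9% fell. Probes with a coding RefSeq accession gave 16.9% and 14.3%. The largest rises among probes without a symbol were those of MRAK132609 (-4.60, -4.46 and -5.0 in vein, 3.09, 3.72 and 1.28 in graft, 7.38 ± 0.87) and MRAK020463, which was under background in vein and at least 98.1-fold higher. The largest falls among them were a coding transcript for which the gene table gave no symbol (-8.77 ± 0.74) and a transcript of an ultraconserved region (-3.58, 3.87 and 6.52 in vein, -6.37, -6.80 and -6.17 in graft, -8.72 ± 2.17). In the latter day 0 replicate 1 lay more than 7 units under the other vein arrays, and in graft it was well above background on 2 arrays. With the scan block neither it nor MRAK132609 was called.

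Some genes still moved late. Between day 14 and day 28, 829 probes (3.36%) were called, 429 higher (1.74%) and 400 lower (1.62%), and between day 7 and day 28, 346 (1.4%). The 9-array fit called 0 in either comparison with limma, where 1655 and 1496 probes had an unadjusted p under 0.05, so the following are values of the 12-array fit. Leaving out 1 array of day 0 or day 28 gave 145 to 1611 calls against day 14 and 34 to 536 against day 7, fewest without day 28 replicate 1. Kera was -6.35, -5.22 and -8.27 on the day 14 arrays against -0.06, -0.30 and 0.13 at day 28 (6.53 ± 0.66, adjusted p = 0.0013). Ntf3, neurotrophin 3, was 0.24, 1.01 and 0.71 in vein, under background at day 14 (-7.75, -8.58 and -8.58) and at -1.86, -1.16 and -3.50 at day 28. It was called lower than vein and was at least 26.6-fold higher than at day 14 (adjusted p = 0.0027). Pkhd1l1 went from a mean of 1.95 in vein to under background at day 14 and -2.39 at day 28, at least 22.9-fold higher than at day 14. RGD1565959 was -0.27, 0.04 and -0.46 at day 14 and 4.80, 4.73 and 4.40 at day 28 (4.88 ± 0.49), and Mmp13 rose late as well (2.76 ± 0.43).

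The largest late falls were in Fabp1 and Alb, products of liver, which were 0.47, -1.42 and 0.98 and 3.49, 1.38 and 3.95 on the day 14 arrays and -8.97, -8.75 and -8.61 and -4.61, -5.01 and -4.52 on the day 28 arrays. Fabp1 was under background on all 3 day 28 arrays, at least 139-fold lower than at day 14 and at least 3.84-fold lower than in vein, although with normexp its difference from vein was -0.85, adjusted p = 0.74. Alb gave -2.55 ± 0.53 against the vein, a call that ended with normexp (-1.47, adjusted p = 0.32). Cyp4a3, under background at day 28, was at least 10.5-fold lower than at day 14. Lgals12 (-3.52 ± 0.61), a galectin of fat cells, Hpd (-3.43 ± 0.55) and Fcar (-3.47 ± 0.78) fell from day 14 to day 28 too. Fcar remained called above the vein, where it was under background, its bound was only 1.72-fold, and the call was lost without any 1 of the 6 arrays of the comparison (with 1 array left out adjusted p up to 0.11 and differences of 2.23 to 2.67). The 6 arrays alone kept the call of Fcar (adjusted p = 0.0069), and normexp did not (-0.032, adjusted p = 0.97). The calls of Hpd and Lgals12 below the vein (-2.07 ± 0.55 and -2.33 ± 0.61) were lost without day 28 replicate 1 or 2, and that of Hpd also without day 0 replicate 2 (adjusted p up to 0.069 for Hpd and 0.068 for Lgals12). With the scan block Ntf3, Pkhd1l1, RGD1565959, Fabp1, Alb, Lgals12, Hpd and Fcar were not called against the vein.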

How the data were processed

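RNA of 12 rat vein samples (3 each at days 0, 7, 14 and 28) was hybridised to single-colour Cy3 arrays after ribosomal RNA removal, per the labels' protocols. Intensity values are the deposited scanner values of an Agilent scanner, read per the file headers with Feature Extraction version 11.0.1.1, which subtracts background. The authors' deposited table of log2 values for 24484 of the gene probes, with array medians of 7.15 and an unstated normalisation, served as an alternative; its columns correlated with log2 signal of their own arrays at 0.991 to 0.999.

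From the processed signal, log2 values minus each array's 75th percentile were computed over 42136 gene spots; 1417 control spots and 7348 spots marked as outliers on an array were left out, and spots of 1 probe were averaged. A probe was well above background on an array when a share over 0.5 of its kept spots was. Accessions without version were matched to the RefSeq gene table of build GRCr8 for names: 14294 probes had 1 symbol, 0 several and 10390 none, and the brightest probe stood for a gene. limma 3.58.1 (R 4.3.3) was fitted to all 12 arrays, with Benjamini-Hochberg adjustment over 24684 probes. The scripts also used Python 3.11.15, NumPy 2.4.6, pandas 2.3.3 and Matplotlib 3.10.9, and the fit was tested on simulated data. The number of arrays limits the precision.

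Genes are named by rule: the 15 largest rises and 15 largest falls among called, non-overlapping genes; up to 4 called genes and up to 2 genes within 2-fold from each of 37 lists; every measured member of 5 lists (contractile smooth muscle, venous, arterial, class II, non-coding); the 6 largest late rises and falls; and 4 probes without a symbol. Gpnmb, Ctsk, Apoe, Fbn1, Fbln5, Loxl1, Loxl2, Eln, Fos, Egr1, Klf2, Myh2, Acta1 and the lists' other members named beyond it were chosen after their values were seen. A few genes that the rule names are not reported here. The comparison and the lists were chosen with earlier results of these data known. The planned normexp correction on mean signal was run on median signal, the column in the files. The scan time in the headers stood for the slide.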

Additional observations from a re-analysis of the deposited data

How the results depend on the processing

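No paired analysis was possible because the labels give every array the same replicate number. Of the 135 named genes that were called, all kept their direction under the alternatives run, except Fcar, which was at -0.032 (adjusted p = 0.97) with normexp background correction. Of the 44 named genes without a call 21 changed sign under at least 1 alternative. The medians of up to 4 of the 37 lists changed sign, without day 0 replicate 1. Scaling by the median or by quantiles, filters on dim probes, outlier spots kept and the authors' deposited table gave 7091 to 7289 calls. Leaving out 1 of the 6 arrays gave 4364 to 8523 calls (2243 to 4296 higher, 2121 to 4227 lower), 4750 to 6979 probes within 2-fold, and 145 to 1611 calls against day 14 and 34 to 536 against day 7. Calls fell most without day 28 replicate 1.

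Normexp gave 2128 calls (1226 higher, 902 lower), 57 against day 14 and 53 against day 7. The 6 arrays alone gave 4568 calls (2189 higher, 2379 lower). The scan as a fixed block gave 1128 calls (625 higher, 503 lower), 3798 probes within 2-fold, 97 calls against day 14 and 0 against day 7 (795 at an unadjusted p under 0.05). The scan as a random block gave 137 calls against day 7. Array weights gave 16579 calls against day 14 and 14731 against day 7. Without replicate 3 of days 0 and 7 together, 9427 probes were called (3899 higher, 5528 lower), 4300 against day 14 and 900 against day 7. The 9-array fit, added after the data were seen, gave 1622 calls (896 higher, 726 lower), 3035 probes within 2-fold and 0 calls against days 14 and 7 (1655 and 1496 at an unadjusted p under 0.05 in limma). Calls were lost for 36 named genes with normexp, 82 with the fixed block, 16 with the 6 arrays alone and 56 with the 9-array fit. Those lost with normexp include Alb, Atp6v1h, C2, Cd22, Cd79b, Cdh5, Epb42, Fabp1, Fcar, Fgf2, Flt4, Gja4, Gzmb, Hpd, Il10, Kcnj8, Kit and Klk6. They also include Lgals12, Mcpt10, Ms4a2, Myh6, Nefl, Nefm, Nrp1, Nrp2, Ntf3, Ppara, Serpinb2, Slc4a1, Sod1, Sp7, Tceal7, Tgfbr3 and Tpm1. Why the counts differ between settings was not tested. Probes not well above background carry only a bound, which limits every fold against the vein given as "at least".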
